A study of Mus musculus with 6 samples.

Results

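The miR-26 and miR-29 families were followed through 6 small RNA libraries of mouse serum. The 5 members, chosen by their miRBase identifiers, were miR-26a-5p (MIMAT0000533), miR-26b-5p (MIMAT0000534), miR-29a-3p (MIMAT0000535), miR-29b-3p (MIMAT0000127) and miR-29c-3p (MIMAT0000536). They are 5 of the 788 miRNAs listed with reads in at least 1 library, and all 5 had reads in each of the 6 libraries. Serum came from healthy 129/SVj mice of both sexes, aged 2 to 9 months, and the only agent given was tribromoethanol, for sedation before bleeding. Libraries were prepared with the NEBNext, TruSeq or TailorMix kit, 2 libraries per kit. All libraries were size-selected to between 125 and 153 bp before sequencing, and the question put to them was how the kit changes what is read from the same kind of serum. RNA was isolated from the serum of individual mice, and the labels number the serum 1 and 2 within each kit. Whether serum 1 and serum 2 are the same from kit to kit is not stated in the sources used here. Unless they are, a difference between kits and a difference between animals cannot be told apart.

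MicroRNAs are short RNAs that guide Argonaute proteins to messenger RNAs through the seed, bases 2 to 8 from the 5′ end, so that miRNAs with the same seed share most of their targets. The miR-26 family is expressed in many tissues and is known to repress Ezh2, the methyltransferase of Polycomb repressive complex 2. The miR-29 family is known to repress collagen and elastin messenger RNAs and the DNA methyltransferases Dnmt3a and Dnmt3b, and is low in fibrotic tissue. Serum holds miRNAs released from many tissues, and a change in the tissue of origin cannot be told apart from a change in release.

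The mature sequences (RefSeq, GRCm38.p6, 5′ to 3′) are shown because the seed defines each family. Capitals mark the seed.
miR-26a-5p: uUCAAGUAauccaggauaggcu
miR-26b-5p: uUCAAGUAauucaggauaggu
miR-29a-3p: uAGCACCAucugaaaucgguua
miR-29b-3p: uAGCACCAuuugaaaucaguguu
miR-29c-3p: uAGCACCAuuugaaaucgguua
Among the 1679 distinct mature mouse miRNAs of the RefSeq table, only miR-26a-5p and miR-26b-5p carry the seed UCAAGUA and only miR-29a-3p, miR-29b-3p and miR-29c-3p carry AGCACCA. All 5 members begin with U. They differ at the 3′ end, where miR-26a-5p, miR-26b-5p and miR-29b-3p end in U and miR-29a-3p and miR-29c-3p end in A. Their lengths were 21 bases for miR-26b-5p, 23 for miR-29b-3p and 22 for the other members.

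The members come from 7 hairpins. miR-26a-5p is encoded at chr9:119031811-119031832 (plus strand, Mir26a-1), in an intron of Ctdspl, and at chr10:126995543-126995564 (plus strand, Mir26a-2), overlapping an annotated exon of Ctdsp2. miR-26b-5p lies at chr1:74394324-74394344 (plus strand), in an intron of Ctdsp1. These 3 host genes encode related small phosphatases of the RNA polymerase II C-terminal domain and are transcribed on the same strand as the miRNA. The miR-29 genes form 2 clusters. On chromosome 6, miR-29a-3p (chr6:31062673-31062694) and the Mir29b-1 copy of miR-29b-3p (chr6:31063025-31063047) lie on the minus strand, with 275 bases between their hairpins. Mir29b-1 lies in an exon of the non-coding transcript Gm27019, and no gene of the annotation other than its own hairpin spans miR-29a-3p. On chromosome 1, the Mir29b-2 copy of miR-29b-3p (chr1:195037091-195037113) and miR-29c-3p (chr1:195037600-195037621) lie on the plus strand with 426 bases between hairpins, both within exons of the non-coding transcript A330023F24Rik and opposite to an exon of Cd46. miR-29b-3p is thus encoded beside miR-29a-3p and beside miR-29c-3p.

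The libraries held between 165139 and 351758 reads on miRNAs, of 5144833 to 26256012 reads annotated as miRNA or another small RNA, and listed 367 to 540 miRNAs each. Levels are given as reads per 1000000 miRNA reads of the same library (RPM), with the read count behind them. At this depth, 3 counts correspond to 8.53 to 18.2 RPM, and intervals of single libraries are 95% Wilson intervals, which cover counting error only. Replicates of a kit varied beyond counting error, most of all those made with TruSeq (chi-square over its degrees of freedom 15, against 2.16 in NEBNext and 1.59 in TailorMix, over miRNAs with 10 or more reads in the pair). The 5 members together took 3.23% ± 0.0881 of miRNA reads in NEBNext libraries, 1.97% ± 0.0865 in TruSeq and 2.50% ± 0.0618 in TailorMix libraries (mean ± SD, n = 2 each).

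**Figure D1:**
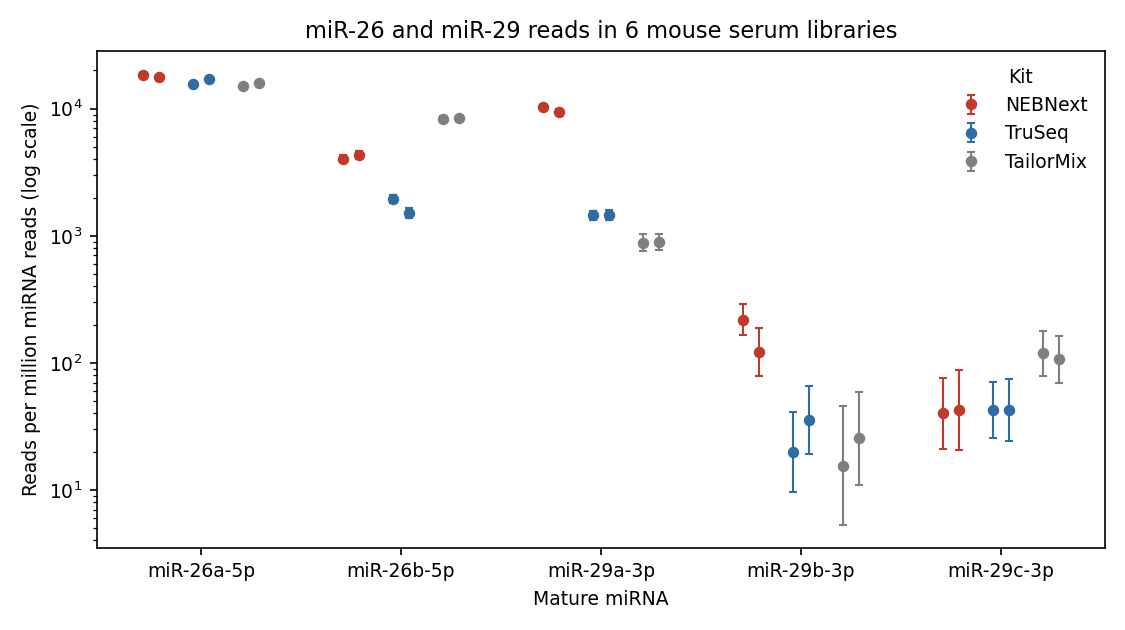
Reads per 1000000 miRNA reads (log scale) of the 5 members in each library, coloured by kit, with 95% Wilson intervals. miR-26a-5p lay between 15181 and 18420 RPM in all 6 libraries, whereas miR-29a-3p lay at 9416 and 10233 RPM with NEBNext and at 884 to 1461 RPM with the other kits.

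miR-26a-5p was the most abundant member with each kit and, as a share of miRNA reads, changed least. NEBNext gave 4142 and 2939 reads, TruSeq 5495 and 4864 and TailorMix 2937 and 3147. In share of miRNA reads this was 18420 and 17797 RPM (NEBNext), 15622 and 17244 RPM (TruSeq) and 15181 and 15983 RPM (TailorMix). Both NEBNext libraries lay above the rest, while TruSeq and TailorMix overlapped. The kit means differed by at most 1.16-fold (exact permutation test of the ratio of between-kit to within-kit spread, two-sided, p = 0.133, adjusted p = 0.133 over 8 tests). It ranked between 14 and 18 among the miRNAs of every library.

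miR-26b-5p, its paralog with the same seed, followed another order. The counts were 906 and 713 (NEBNext), 682 and 427 (TruSeq) and 1609 and 1650 (TailorMix). These correspond to 4029 and 4318 RPM, 1939 and 1514 RPM, and 8317 and 8380 RPM. Both TailorMix libraries were highest and both TruSeq libraries lowest. Such separation by kit, here and for the other members, was not counted over all miRNAs. In the fit given below, 68.6% to 77.5% of all miRNAs tested were called between kits, so separation is not read as particular to these members. The mean share of miR-26b-5p with TailorMix was 2.00-fold that with NEBNext and 4.84-fold that with TruSeq (p = 0.0667 by the two-sided exact permutation test, the lowest value that the 15 groupings of 6 libraries allow, adjusted p = 0.0889). In rank it moved from between 42 and 48 with NEBNext and TruSeq to 23 and 22 with TailorMix.

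miR-29a-3p, the main member of the miR-29 family in serum, showed the largest difference among the 5 members as a share of miRNA reads. NEBNext libraries held 2301 and 1555 of its reads, TruSeq 510 and 412 and TailorMix 171 and 176. The corresponding shares were 10233 and 9416 RPM, 1450 and 1461 RPM, and 884 and 894 RPM. NEBNext was far above the other kits, and both TruSeq libraries exceeded both TailorMix libraries. The NEBNext mean of 9825 ± 577 RPM was 6.75-fold the TruSeq mean of 1455 ± 7.59 RPM and 11.1-fold the TailorMix mean of 889 ± 7.08 RPM (SD, n = 2 each, exact permutation test, two-sided, p = 0.0667, adjusted p = 0.0889). Its rank was 27 and 31 (NEBNext), 48 and 46 (TruSeq) and 76 and 70 (TailorMix).

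miR-29b-3p, which carries at its 3′ end an element known to direct it to the nucleus in human cells, was scarce. It was counted 49 and 20 times with NEBNext, 7 and 10 times with TruSeq and 3 and 5 times with TailorMix. The shares were 218 (95% Wilson interval 165 to 288) and 121 (78.4 to 187) RPM with NEBNext, 19.9 (9.64 to 41.1) and 35.5 (19.3 to 65.3) RPM with TruSeq, and 15.5 (5.27 to 45.6) and 25.4 (10.8 to 59.5) RPM with TailorMix. Both NEBNext libraries lay above the 4 others, and their intervals overlapped each other, as did those of TruSeq and TailorMix. The NEBNext mean of 170 ± 68.4 RPM was 6.12-fold the TruSeq mean of 27.7 ± 11.0 RPM and 8.29-fold the TailorMix mean of 20.5 ± 6.99 RPM (SD, n = 2 each, exact permutation test, two-sided, p = 0.133, adjusted p = 0.133). TailorMix replicate 1 held only 3 reads, the count set here as a floor, which is not a measured background.

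miR-29c-3p was also scarce, and it was highest with TailorMix, the kit in which miR-29a-3p was lowest. It was read 9 and 7 times (NEBNext), 15 and 12 times (TruSeq) and 23 and 21 times (TailorMix). With NEBNext it took 40.02 (95% Wilson interval 21.1 to 76.1) and 42.4 (20.5 to 87.5) RPM, with TruSeq 42.6 (25.8 to 70.4) and 42.5 (24.3 to 74.4) RPM, and with TailorMix 119 (79.2 to 178) and 107 (69.8 to 163) RPM. NEBNext and TruSeq were not distinguishable at this depth, and both TailorMix libraries lay above the others. The TailorMix mean was 2.74-fold the NEBNext mean and 2.65-fold the TruSeq mean (exact permutation test, two-sided, p = 0.0667, adjusted p = 0.0889).

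Summed over their members, the families differed between kits to unequal extents. The miR-26 family took 2.23% ± 0.0236 (NEBNext), 1.82% ± 0.0846 (TruSeq) and 2.39% ± 0.0612 (TailorMix) of miRNA reads. The miR-29 family took 1.00% ± 0.0644, 0.153% ± 0.00185 and 0.102% ± 0.000542, respectively (mean ± SD, n = 2 each). For both sums the exact permutation test gave the smallest possible p (two-sided, p = 0.0667, adjusted p = 0.0889). Within the miR-26 family, miR-26b-5p made up 18.7% ± 1.11 of reads (NEBNext), 9.56% ± 2.10 (TruSeq) and 34.9% ± 0.705 (TailorMix). Within the miR-29 family, miR-29c-3p made up 0.412% ± 0.0431, 2.79% ± 0.0386 and 11.0% ± 0.904 in the same order (SD, n = 2 each). miR-29b-3p made up 1.67% ± 0.575, 1.81% ± 0.699 and 2.00% ± 0.673, which did not differ beyond the replicate spread.

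**Figure D2:**
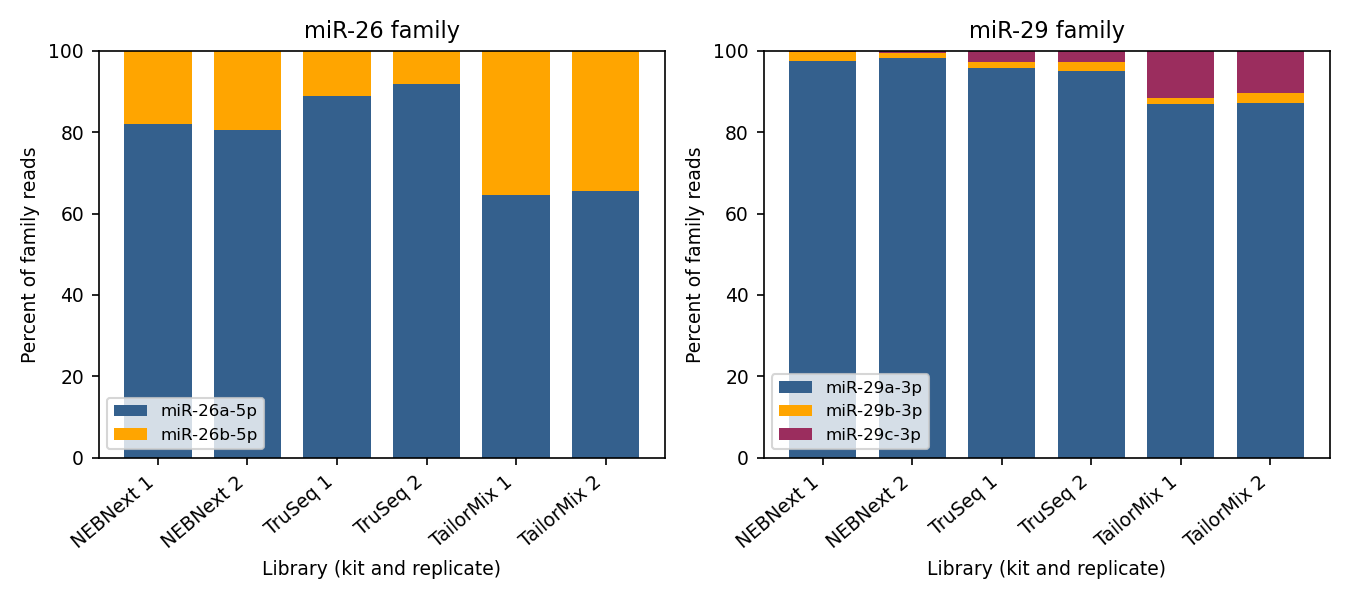
Percent of the reads of each family taken by its members, as stacked bars from 0 to 100, for each library. miR-26b-5p takes 34.9% of miR-26 reads with TailorMix against 9.56% with TruSeq, and miR-29c-3p takes 11.0% of miR-29 reads with TailorMix against 0.412% with NEBNext (means of 2 libraries).

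The ratio of paralogs within a library does not depend on how libraries are scaled to each other, and was used to ask whether members of a family respond alike to the kit. The sequences of the pairs are shown again, with the bases that differ between the pair in capitals.
miR-26a-5p: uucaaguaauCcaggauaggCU
miR-26b-5p: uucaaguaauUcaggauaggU
miR-29a-3p: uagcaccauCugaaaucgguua
miR-29c-3p: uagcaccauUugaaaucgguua
Counted from 1 at the 5′ end, miR-26a-5p and miR-26b-5p differ by C11U and C21U and by the last base of miR-26a-5p, which miR-26b-5p lacks. miR-29a-3p and miR-29c-3p differ by C10U alone. These pairs share no run of bases longer than 10 and 12, respectively. Since the reads were at least 15 bases long and mapped without mismatches, a read that lies within either mature sequence of such a pair can be told from the other.

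miR-29a-3p exceeded miR-29c-3p in every library, but by very different factors. There were 256 (95% Clopper-Pearson interval 134 to 560) and 222 (108 to 553) miR-29a-3p reads per miR-29c-3p read with NEBNext, 34.0 (20.4 to 61.2) and 34.3 (19.4 to 67.0) with TruSeq, and 7.43 (4.79 to 12.0) and 8.38 (5.32 to 13.9) with TailorMix. The intervals of the 3 kits did not overlap, but they cover counting error only. The mean log2 ratio was 7.81 ± 0.16 (NEBNext), 5.04 ± 0.0020 (TruSeq) and 2.95 ± 0.12 (TailorMix) (SD, n = 2 each, with 0.5 counts added to each miRNA). TailorMix minus NEBNext was -4.86 on the log2 scale (p = 0.0667 over the 3 kits by the two-sided exact permutation test, the smallest possible, adjusted p = 0.0833 over 5 ratios).

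For the miR-26 pair, 4.57 and 4.12 reads of miR-26a-5p were counted per read of miR-26b-5p (NEBNext), 8.06 and 11.4 (TruSeq) and 1.83 and 1.91 (TailorMix). The 95% Clopper-Pearson intervals of the TruSeq replicates, 7.44 to 8.74 and 10.3 to 12.6, did not overlap each other. The log2 ratio was 2.12 ± 0.11, 3.26 ± 0.35 and 0.90 ± 0.045, respectively (SD, n = 2 each). It was highest in both TruSeq libraries and lowest in both TailorMix libraries (exact permutation test, two-sided, p = 0.0667, adjusted p = 0.0833). How often other pairs of miRNAs separate by kit in this way was not counted. The order of kits thus differed from that of the miR-29a-3p to miR-29c-3p ratio, which was highest with NEBNext.

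For miR-29a-3p and miR-29b-3p no difference between kits was detectable at this depth. There were 47.0 and 77.8 miR-29a-3p reads per miR-29b-3p read (NEBNext), 72.9 and 41.2 (TruSeq) and 57.0 and 35.2 (TailorMix). The log2 ratio was 5.89 ± 0.50 (NEBNext), 5.69 ± 0.56 (TruSeq) and 5.31 ± 0.43 (TailorMix), so that the means lay within about the spread of the replicates (SD, n = 2 each, exact permutation test, two-sided, p = 0.533, adjusted p = 0.533). With 3 to 49 reads on miR-29b-3p this does not show that the ratio was the same. The counting intervals reached from 35.4 to 63.7 miR-29a-3p reads per miR-29b-3p read in the best-covered library and from 19.2 to 279 in the poorest. Without NEBNext replicate 2 the difference between TruSeq and NEBNext turned from -0.20 to 0.15 on the log2 scale, and without TruSeq replicate 2 to 0.20. The difference between TailorMix and TruSeq turned from -0.38 to 0.013 without TruSeq replicate 1.

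miR-29c-3p and miR-29b-3p changed places between kits. miR-29c-3p was counted 0.184 (95% Clopper-Pearson interval 0.0793 to 0.378) and 0.350 (0.125 to 0.862) times per miR-29b-3p read with NEBNext, 2.14 (0.822 to 6.21) and 1.20 (0.475 to 3.10) times with TruSeq and 7.67 (2.32 to 39.9) and 4.2 (1.54 to 14.3) times with TailorMix. It was therefore the rarer of the pair with NEBNext and the more frequent with TailorMix, and with TruSeq the intervals included equal counts. The log2 ratio was -1.92 ± 0.66, 0.65 ± 0.56 and 2.36 ± 0.55 (SD, n = 2 each, exact permutation test, two-sided, p = 0.0667, adjusted p = 0.0833). The first 17 bases of miR-29b-3p and miR-29c-3p are identical, and the members of this pair differ by A18G, G21U and U22A, read from miR-29b-3p to miR-29c-3p, beside the longer 3′ end of miR-29b-3p. Reads of 15 to 17 bases from this 5′ part cannot be assigned to either, and how the authors counted reads that map to several loci is not given in the sources used here.

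Between families, miR-26 reads outnumbered miR-29 reads by 2.14 and 2.31 to 1 (NEBNext), 11.6 and 12.2 to 1 (TruSeq) and 23.1 and 23.7 to 1 (TailorMix). The log2 ratio of the family sums was 1.15 ± 0.077, 3.57 ± 0.050 and 4.55 ± 0.029 (SD, n = 2 each). Its spread within each kit was small beside the differences of 0.97 to 3.39 between kits (exact permutation test, two-sided, p = 0.0667, adjusted p = 0.0833).

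**Figure D3:**
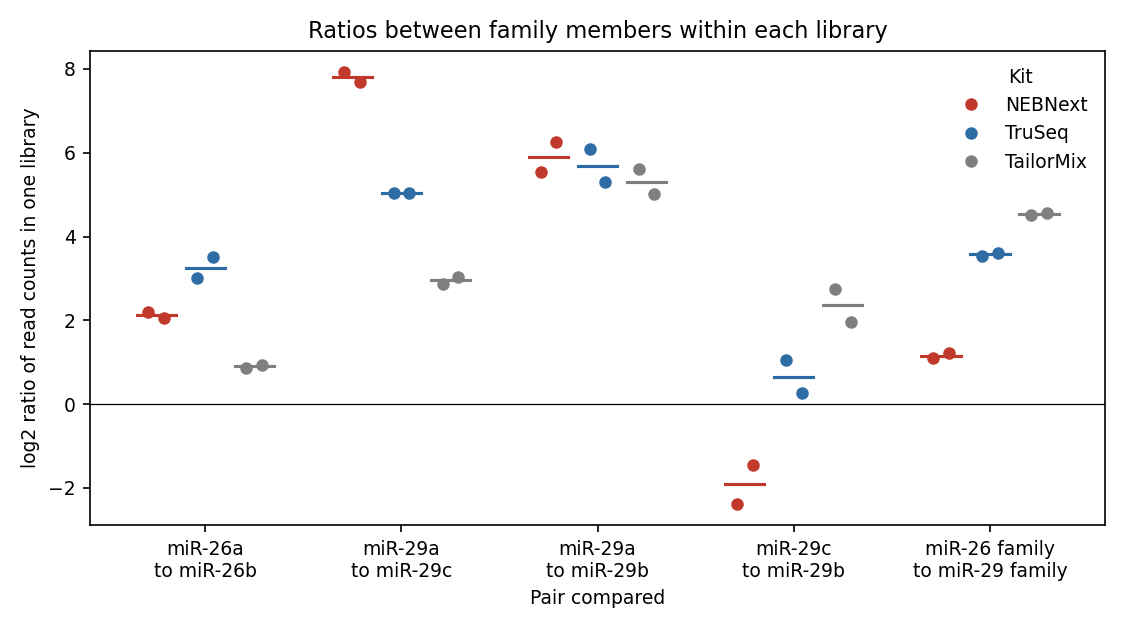
Log2 ratio of read counts within each library (points) and mean of each kit (lines), with 0.5 counts added to each miRNA or family. The miR-29a-3p to miR-29c-3p ratio falls from 7.81 with NEBNext to 5.04 with TruSeq and 2.95 with TailorMix, while the miR-29a-3p to miR-29b-3p ratio overlaps between kits.

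The kits were then compared over all miRNAs that reached 4 counts in 2 or more libraries, in a fit that scales libraries by TMM (edgeR's quasi-likelihood test), and the 5 members were read from this fit. All 5 members were among the 360 miRNAs tested. Of the members, 4 passed an adjusted p of 0.05 between TruSeq and NEBNext, 5 between TailorMix and NEBNext and 4 between TailorMix and TruSeq. Among all miRNAs tested, 68.6%, 77.5% and 70.6% did so, respectively, so that being called was common and is no result about these families. The median log2 fold change of the 5 members was -0.19, 0.44 and -0.49, against -0.52, -0.24 and 0.50 over all miRNAs tested. Members lay above and below 0 in each comparison. The median of 5 values is that of a single member, here miR-26b-5p, miR-26a-5p and miR-26a-5p, and shows no common shift.

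TMM takes most miRNAs as unchanged between libraries, whereas most of those tested were called here. The sizes of fold changes and their adjusted p-values therefore rest on the scaling chosen. The split of calls over all miRNAs depended on the scaling. Between TruSeq and NEBNext, 26.1% of the miRNAs tested were higher and 42.5% lower in TruSeq with TMM, 16.9% and 53.1% (70.0% in all) with miRNA reads as library size, and 37.2% and 35.6% (72.8% in all) with annotated reads. Between TailorMix and NEBNext, 39.2% were higher and 38.3% lower in TailorMix with TMM, 30.0% and 47.8% (77.8% in all) with miRNA reads, and 52.2% and 17.8% (70.0% in all) with annotated reads. Between TailorMix and TruSeq the shares were 41.7% and 28.9%, 48.6% and 24.7% (73.3% in all), and 51.9% and 21.7% (73.6% in all). Members called with TMM were 2 higher and 2 lower, 3 higher and 2 lower, and 2 higher and 2 lower in the same order.

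**Figure D4:**
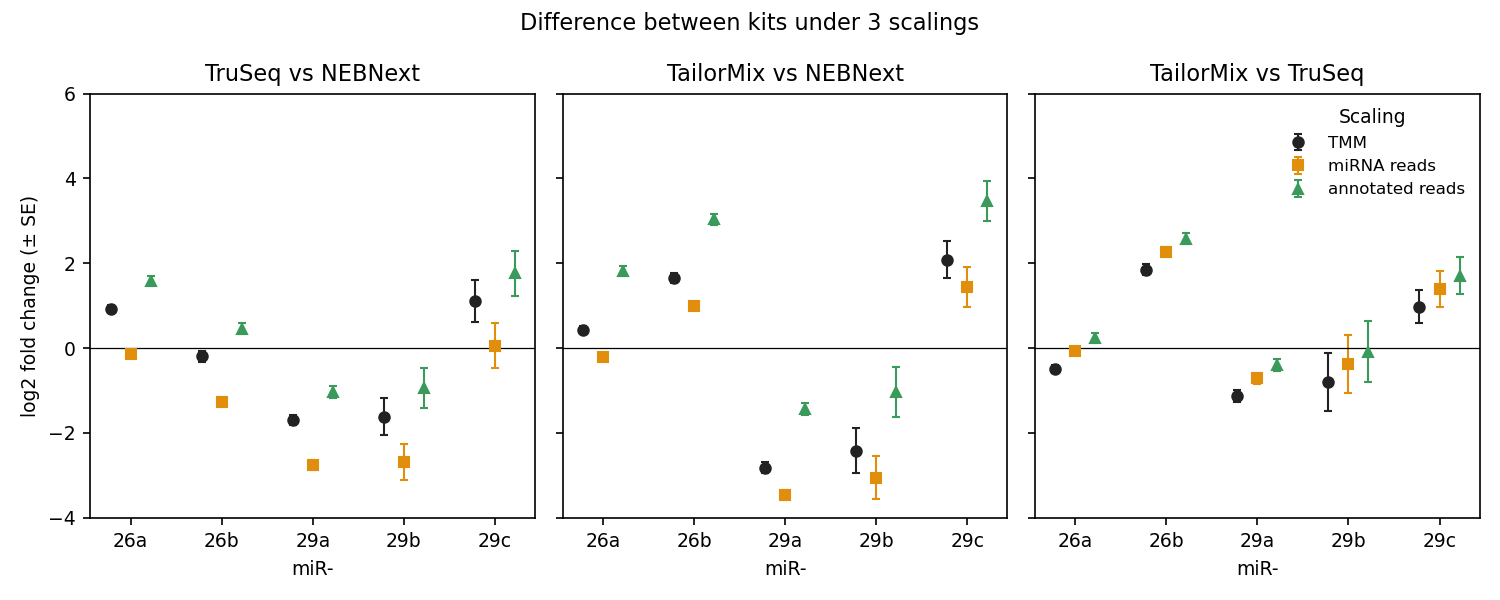
Log2 fold change ± standard error of the 5 members in the 3 comparisons of kits, with libraries scaled by TMM, by miRNA reads or by annotated reads. miR-29a-3p is below 0 in all 9 cases, whereas miR-26a-5p changes sign with the scaling in each comparison.

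miR-29a-3p was lower with TruSeq than with NEBNext, with a log2 fold change of -1.69 (standard error 0.12, adjusted p = 1.97e-14), and lower with TailorMix than with NEBNext by -2.81 (standard error 0.13, adjusted p = 2.40e-19). It was also lower with TailorMix than with TruSeq, by -1.13 (standard error 0.14, adjusted p = 6.36e-09). These 3 calls and their directions held in each of the 14 alternatives, in which the log2 fold changes ranged from -2.76 to -1.03, from -3.47 to -1.43 and from -1.31 to -0.40 in the same order.

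miR-29b-3p was lower with TruSeq than with NEBNext (log2 fold change -1.62, standard error 0.44, adjusted p = 0.00157) and lower with TailorMix than with NEBNext (-2.41, standard error 0.53, adjusted p = 0.000137). Between TailorMix and TruSeq its value was -0.80 (standard error 0.68, adjusted p = 0.304). The first call was lost without TruSeq replicate 1 (-1.29, adjusted p = 0.0621), with DESeq2 (-1.48, adjusted p = 0.128) and with annotated reads as library size (-0.94, adjusted p = 0.0570), and the second with annotated reads (-1.03, adjusted p = 0.110).

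miR-29c-3p was higher with TailorMix than with NEBNext, at a log2 fold change of 2.09 (standard error 0.44, adjusted p = 8.45e-05), and this call held in each of the 14 alternatives (1.45 to 3.47). Its other calls were unstable. The log2 fold change was 1.11 between TruSeq and NEBNext (standard error 0.49, adjusted p = 0.0434) and 0.98 between TailorMix and TruSeq (standard error 0.40, adjusted p = 0.0284), and these calls held in 5 and 7 of 14 alternatives. The former was 0.053 (adjusted p = 0.952) with miRNA reads as library size and 0.18 (adjusted p = 0.813) with counts thinned to the smallest library. Both calls were lost with DESeq2 (adjusted p = 0.189 and 0.277) and without the filter on low counts (adjusted p = 0.151 and 0.209). Leaving out any library of the kits compared ended them, with adjusted p of 0.285 without NEBNext replicate 1, 0.165 without NEBNext replicate 2, 0.186 without TruSeq replicate 1 and 0.171 without TruSeq replicate 2 for the former. For the latter they were 0.172 and 0.184 without TruSeq replicate 1 and 2, and 0.0732 and 0.104 without TailorMix replicate 1 and 2.

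miR-26b-5p was higher with TailorMix than with NEBNext, its log2 fold change being 1.65 (standard error 0.13, adjusted p = 8.38e-14) and higher than with TruSeq by 1.85 (standard error 0.13, adjusted p = 8.14e-15), and both calls held in each of the 14 alternatives. Between TruSeq and NEBNext it stood at -0.19 on the log2 scale (standard error 0.13, adjusted p = 0.181). This value depended on the scaling, since it was -1.27 (adjusted p = 5.50e-29) with miRNA reads as library size and 0.45 (adjusted p = 0.000901) with annotated reads. It also passed the threshold with counts thinned to the smallest library (-0.38, adjusted p = 0.0117), without NEBNext replicate 1 (-0.53, adjusted p = 0.00647) and without TruSeq replicate 1 (-0.49, adjusted p = 0.00824).

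For miR-26a-5p the sign of each estimate depended on the scaling, though only between TailorMix and NEBNext was the opposite sign called. Under TMM it was 0.93 in TruSeq against NEBNext (standard error 0.096, adjusted p = 1.87e-10) and 0.44 in TailorMix against NEBNext (standard error 0.096, adjusted p = 0.000150). In TailorMix against TruSeq it was -0.49 (standard error 0.095, adjusted p = 3.17e-05). With miRNA reads as library size they were -0.14 (adjusted p = 0.161), -0.22 and -0.076 (adjusted p = 0.443). With annotated reads they were 1.58, 1.82 and 0.24 (adjusted p = 0.0571 for the last). The difference between TailorMix and NEBNext was not called in 3 of the 14 alternatives, namely without NEBNext replicate 1 (0.24, adjusted p = 0.0857), without the filter on low counts (0.20, adjusted p = 0.642) and in the fit of only the 4 libraries compared (0.31, adjusted p = 0.0651). With miRNA reads as library size it was called in the other direction (adjusted p = 0.0249). It was 0.25 and 0.21 without TruSeq replicate 1 and 2, and 0.74 without TailorMix replicate 1, which also moved TailorMix against TruSeq to -0.29. TMM factors were 1.47 and 1.51 for NEBNext, 0.685 and 0.735 for TruSeq and 0.947 and 0.946 for TailorMix. Relative to TMM, the median over all miRNAs tested shifted by -0.95, -0.65 and 0.41 with miRNA reads and by 0.52, 1.33 and 0.72 with annotated reads in the order TruSeq to NEBNext, TailorMix to NEBNext and TailorMix to TruSeq. Set against the TMM median of each comparison, in the same order, miR-26a-5p lay at 1.45, 0.67 and -0.99. In the same terms miR-26b-5p lay at 0.33, 1.89 and 1.34, miR-29a-3p at -1.16, -2.58 and -1.63, miR-29b-3p at -1.09, -2.18 and -1.30 and miR-29c-3p at 1.63, 2.32 and 0.47.

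As a share of all annotated reads, which include other classes of small RNA, the miR-26 members were ordered otherwise. miR-26a-5p had 165 ± 10.8 (NEBNext), 495 ± 30.9 (TruSeq) and 582 ± 16.1 (TailorMix) reads per 1000000 annotated reads. miR-26b-5p had 38.2 ± 5.29, 52.0 ± 9.44 and 312 ± 1.03 (SD, n = 2 each). miR-29a-3p kept its order, with 89.6 ± 2.77, 43.8 ± 0.0960 and 33.2 ± 0.0242 reads per 1000000 annotated reads. In this unit the NEBNext mean was thus lowest for both miR-26 members and highest for miR-29a-3p. miR-29b-3p had 1.52 ± 0.487, 0.832 ± 0.325 and 0.763 ± 0.255 and miR-29c-3p 0.377 ± 0.0491, 1.28 ± 0.0117 and 4.22 ± 0.360 reads per 1000000 annotated reads. The ranking of the members by the size of their difference turned with the unit. This unit also carries the part of annotated reads that were miRNA, which acts alike on every miRNA of a library. That part was 224864 of 26256012 reads in NEBNext replicate 1, 351758 of 11620980 in TruSeq replicate 1 and 193468 of 5144833 in TailorMix replicate 1. The turn in ranking is therefore no trait of these members alone. The highest kit mean was 11.2-fold the lowest for miR-29c-3p, 8.16-fold for miR-26b-5p, 3.52-fold for miR-26a-5p, 2.70-fold for miR-29a-3p and 1.99-fold for miR-29b-3p as a share of annotated reads.

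The likeness of patterns over the 6 libraries was measured as the Euclidean distance between log2 CPM values (TMM, prior count 2) centred on the mean of each miRNA, so that a smaller value means a more similar profile. For miR-29a-3p, miR-29b-3p was the 8th nearest of 359 other miRNAs (distance 1.11, median of all others 3.85), while miR-29c-3p was at position 232 (distance 4.63). miR-29c-3p was nearer to miR-26b-5p (position 28, distance 1.26) and to miR-26a-5p (position 48, distance 1.61) than to either of its paralogs. The profiles of miR-29c-3p and miR-29b-3p rest on 7 to 23 and 3 to 49 reads per library. miR-26a-5p and miR-26b-5p stood at a distance of 2.39, and miR-26b-5p was at position 108 from miR-26a-5p. Of the 4 pairs of paralogs, miR-29a-3p and miR-29b-3p were thus the nearest to each other in profile. All 360 profiles share the same 6 libraries and their scaling. The nearest miRNA to miR-26b-5p was MIMAT0000565 (distance 0.31) and the nearest to miR-29a-3p was MIMAT0000671 (distance 0.62), which are named by identifier because the files do not pair identifiers with names.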

How the data were processed

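Small RNA libraries of mouse serum (NEBNext, TruSeq and TailorMix kits, 2 each) were compared. The deposited values are read counts, not normalized. Per the study's methods, the authors removed adaptors with Cutadapt 1.8.1, dropped reads shorter than 15 bp, kept reads with a quality of 20 or more over 80% of their bases (FASTX-Toolkit 0.0.14), allowed no mismatch in Bowtie 1.1.2 and annotated reads from miRBase 20, Ensembl 84 and UCSC tracks (GRCm38). Reads without molecular identifiers are not independent, and since the labels number the sera 1 and 2 in each kit without naming the animals, p-values measure only the spread between these libraries.

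The members and lists were chosen with earlier results of these data known. A miRNA not listed in a library was taken as 0. Shares and within-library ratios were tested by exact permutation (two-sided, 15 groupings, F ratio between kits, Python 3.11.15, scipy 1.17.1), whose smallest p is 0.0667. All miRNAs that reached 4 counts in 2 or more libraries were fitted with edgeR 4.0.16 (TMM, glmQLFit, glmQLFTest, no block, Benjamini-Hochberg adjustment, R 4.3.3). The standard error is the absolute log2 fold change divided by the root of the F statistic. DESeq2 1.42.0, other scalings and filters, thinned counts, single libraries left out and a replicate block were alternatives. By rule the text names the 5 members, the opposite arms of their hairpins, other miRNAs with a member's seed and the 3 nearest patterns per member. No table used here pairs miRBase identifiers with names, so opposite arms and lists of tissue markers were not analysed here, and of the nearest patterns 2 identifiers are printed. Sequences and positions are from RefSeq (GRCm38.p6), host genes from GENCODE (GRCm38).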

Additional observations from a re-analysis of the deposited data

How the results depend on the processing

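Over 14 alternatives to the edgeR fit, the number of miRNAs called stayed within 1.5 times the reported number in all 3 comparisons, and so did the number of members called, except with DESeq2 between TruSeq and NEBNext, where 2 members were called in place of 4. Of the 360 miRNAs tested there, DESeq2 called 175 and the main fit 247. The members no longer called were miR-29b-3p and miR-29c-3p, with log2 fold changes of -1.48 and 1.18 against -1.62 and 1.11. Their standard errors were 0.83 and 0.77 against 0.44 and 0.49. The cause was not tested. Leaving out single libraries gave 200 to 262 miRNAs called between TruSeq and NEBNext, 207 to 284 between TailorMix and NEBNext and 206 to 252 between TailorMix and TruSeq. Scaling by miRNA reads turned miR-26a-5p to -0.14 (TruSeq against NEBNext, adjusted p = 0.161) and -0.22 (TailorMix against NEBNext, adjusted p = 0.0249). Annotated reads turned it to 0.24 (TailorMix against TruSeq, adjusted p = 0.0571). They turned miR-26b-5p to 0.45 (TruSeq against NEBNext), which was 0.028 with only the 4 libraries of that contrast. The miR-26 family had 204, 547 and 894 reads per 1000000 annotated reads and the miR-29 family 91.5, 45.9 and 38.2 with NEBNext, TruSeq and TailorMix. With single libraries left out, the log2 ratio of miR-29a-3p to miR-29b-3p ranged from -0.60 to 0.20 (TruSeq minus NEBNext) and from -0.78 to 0.013 (TailorMix minus TruSeq), the only ratio to reverse. With the replicate number as a block, 232, 250 and 235 miRNAs and 3, 5 and 3 members were called in the order TruSeq against NEBNext, TailorMix against NEBNext and TailorMix against TruSeq. The block ended the calls of miR-29c-3p between TruSeq and NEBNext (adjusted p = 0.0777) and between TailorMix and TruSeq (adjusted p = 0.0588). The differences between replicates 1 and 2 correlated at 0.00083, -0.059 and 0.13 between kits, across 102 miRNAs. This cannot decide whether the replicate numbers are paired. Shared sera would show here only if they differed by more than libraries of a kit vary. Depth limits miR-29b-3p and miR-29c-3p, with 3 to 49 reads per library.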
